A study of Mus musculus with 16 samples.

Results

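Kit and Kitl are a receptor and its ligand, and they are 2 of the 56748 genes in the deposited table, taken by gene symbol. RNA was sequenced from mouse embryos at embryonic day E11.5, from the trunk region or the caudal region. The embryos were wild type (Ednrb+/+, WT) or Ednrb-/-, without a working endothelin receptor B, and no other allele or treatment is named. The 4 groups, WT trunk, Ednrb-/- trunk, WT caudal and Ednrb-/- caudal, held 4 libraries each, numbered as biological replicates. Whether a library came from 1 embryo or a pool, and whether a trunk and a caudal library shared an embryo, is not stated in the labels. P-values therefore measure the spread between these libraries, which may be partly technical. The question behind the study is how the tissue around pigment cells bears on where coat spots form without this receptor.

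Kit is a class III receptor tyrosine kinase at the cell surface. Binding of its ligand pairs 2 receptor molecules, which then signal through PI3 kinase, the Ras to MAP kinase chain, Src family kinases and STAT factors. Melanoblasts, the migrating precursors of pigment cells, need Kit to disperse and survive, as do primordial germ cells and mast cells, and reduced function of either partner gives white spotting in mice. Kitl is made by the tissues these cells cross or settle in, and Kit itself is also made by several other embryonic cell types.

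Kit (ENSMUSG00000005672) lies on chr5:75735576-75817382, and Kitl (ENSMUSG00000019966) on chr10:99851492-99936278, both protein-coding and on the plus strand of mm39. No other listed gene overlapped either one. Both genes make 2 well-known coding forms that differ by a short stretch, and the values used here are per gene, so they sum the forms. The stretches are shown because they decide how the ligand is presented and which receptor form is made, which these values cannot tell. For Kitl the stretch is exon 6, with 84 bases or 28 codons, at chr10:100080857-100080940 of GRCm38. It encodes the main cleavage site through which the ligand is shed, and without it the ligand stays mostly on the membrane. For Kit it is the last 12 bases (4 codons) of exon 9, at chr5:75639147-75639158 of GRCm38, in the part outside the cell next to the membrane. In the GENCODE M21 transcripts below, capitals mark the alternative stretch and lower case the 20 coding bases on each side.
Kitl with exon 6: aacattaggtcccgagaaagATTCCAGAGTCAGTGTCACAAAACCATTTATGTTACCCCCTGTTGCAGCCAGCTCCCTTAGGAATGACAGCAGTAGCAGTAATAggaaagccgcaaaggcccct
Kitl without exon 6: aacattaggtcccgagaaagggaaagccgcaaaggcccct
Kit with the long exon 9: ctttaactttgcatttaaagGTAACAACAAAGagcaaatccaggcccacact
Kit with the short exon 9: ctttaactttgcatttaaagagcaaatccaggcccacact

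Each library held between 34883821 and 43444905 reads in listed genes. Levels are given as FPKM, a read count divided by gene length and by library size. The library size implied by these values differed from the reads in listed genes. Ednrb was low in all 8 Ednrb-/- libraries, at 1.588 to 4.801 FPKM against 26.23 to 41.81 FPKM in WT. Position genes also separated the regions: Hoxb13, a gene of the posterior end, was listed at 0 in the trunk groups and averaged 4.63 FPKM in caudal tissue of WT and 3.65 FPKM in that of Ednrb-/- embryos. Xist and the Y-linked Ddx3y both reached 5 FPKM in 3 libraries, Ednrb-/- trunk 3, WT caudal 2 and Ednrb-/- caudal 3, so results are given without these libraries where a call changed. Xist alone reached 5 FPKM in WT trunk 1 and 4, Ednrb-/- trunk 2 and WT caudal 1, and in no Ednrb-/- caudal library. Sex markers were thus uneven over the groups. They differed between some same-numbered libraries, such as WT trunk 4 and WT caudal 4, and agreed between others, such as WT trunk 1 and WT caudal 1.

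Kit was lower in the trunk than in caudal tissue in both genotypes, and no genotype difference passed the test. In WT trunk its level was 3.594, 3.874, 3.79 and 3.439 FPKM in libraries 1 to 4. In Ednrb-/- trunk it was 3.967, 3.568, 3.835 and 3.424 FPKM. These 8 trunk values ran through each other, with the Ednrb-/- library the higher in 8 of 16 cross pairs. In WT caudal tissue the Kit level was 5.156, 5.046, 4.656 and 4.489 FPKM. In Ednrb-/- caudal tissue it was 4.698, 4.573, 4.811 and 4.548 FPKM. Again the genotypes overlapped, while every caudal library of both genotypes stood above every trunk library.

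Group means of Kit, from lowest to highest, were 3.67 ± 0.196 FPKM in WT trunk (SD, n = 4), 3.70 ± 0.247 in Ednrb-/- trunk, 4.66 ± 0.121 in Ednrb-/- caudal and 4.84 ± 0.316 in WT caudal tissue. The only step in this order larger than the spread lay between trunk and caudal tissue. In WT the trunk mean was 0.760 times the caudal mean, a log2 difference of -0.35 ± 0.06 (SE; limma on log2(FPKM + 0.5), Benjamini-Hochberg adjusted p = 0.00052). In Ednrb-/- embryos it was 0.794 times the caudal mean (-0.30 ± 0.06, adjusted p = 0.00085). For comparison, 18% of the 17205 genes tested were called between the regions in WT, 9.69% as higher and 8.35% as lower in the trunk. In Ednrb-/- embryos 36.2% were called, 17.3% as higher and 18.9% as lower in the trunk.

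A genotype difference of Kit was not detectable in either region. The genotype difference was -0.05 ± 0.06 in caudal tissue (log2; limma adjusted p = 0.53) and 0.01 ± 0.06 in the trunk (adjusted p = 0.94). The 95% intervals ran from 0.89-fold to 1.05-fold in caudal tissue and from 0.925-fold to 1.09-fold in the trunk. The sign of both small differences depended on scaling: the trunk value was -0.0146 after rescaling to TPM and the caudal value 0.0056 after quantile normalization. Other scalings made the caudal value larger, at -0.14 after rescaling to TPM (limma adjusted p = 0.076) and -0.12 with voom on whole reads (adjusted p = 0.12). Between genotypes 41.6% of genes were called in caudal tissue (21.7% higher and 19.9% lower in Ednrb-/-) and 25.1% in the trunk (12.2% higher and 13% lower). Rescaling to TPM turned the caudal split from 3732 higher and 3432 lower to 2219 higher and 5017 lower.

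Kitl was higher without Ednrb in both regions. In WT trunk its level was 7.469, 7.436, 6.206 and 6.917 FPKM in libraries 1 to 4. In Ednrb-/- trunk it was 9.059, 9.371, 8.57 and 8.558 FPKM. The lowest Ednrb-/- trunk library thus stood above the highest WT trunk library. In WT caudal tissue the Kitl level was 8.838, 8.578, 8.892 and 7.37 FPKM, with library 4 below the other three. In Ednrb-/- caudal tissue it was 9.76, 9.958, 9.774 and 9.571 FPKM, the tightest of the 4 groups, and all of these values exceeded all WT caudal values.

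**Figure D1:**
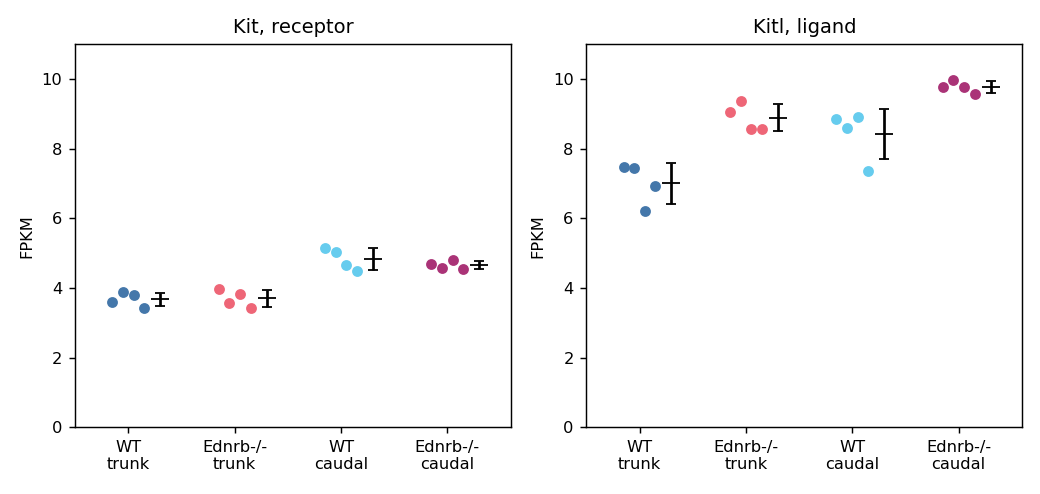
FPKM of Kit (left) and Kitl (right) in each of the 16 libraries, by group on the horizontal axis; points are libraries in replicate order and the bar is the group mean with its SD (n = 4). Kit separates by region, with all caudal libraries at 4.489 FPKM or more and all trunk libraries at 3.967 or less, whereas within each region all Ednrb-/- values of Kitl lie above the WT values.

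In the trunk the Kitl mean rose from 7.01 ± 0.591 to 8.89 ± 0.397 FPKM (SD, n = 4), 1.27 times the WT mean. The log2 difference was 0.33 ± 0.06 (SE; limma adjusted p = 0.0017), with a 95% interval from 1.14-fold to 1.37-fold, against the 12.2% of genes called as higher there. In caudal tissue the mean rose from 8.42 ± 0.713 to 9.77 ± 0.158 FPKM, 1.16 times the WT mean. That difference was 0.21 ± 0.06 (limma adjusted p = 0.015), in a comparison where 21.7% of genes were called as higher, and its interval ran from 1.05-fold to 1.27-fold. The caudal call was lost after rescaling to TPM (0.11, adjusted p = 0.16), with voom on whole reads (0.15, adjusted p = 0.066) and without WT caudal replicate 4 (0.15, adjusted p = 0.054). Over all settings tried, left-out libraries aside, its adjusted p ran from 0.0088 to 0.16.

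The rise of Kitl was not shown to differ between regions. The caudal minus trunk difference of the genotype effect was -0.12 ± 0.09 (log2; limma adjusted p = 0.45) for Kitl and -0.06 ± 0.08 (adjusted p = 0.73) for Kit. Over all genes 6.76% were called for this interaction, 2.98% with a positive and 3.78% with a negative value. Its interval was 0.808-fold to 1.05-fold for Kitl and 0.856-fold to 1.08-fold for Kit.

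In WT, Kitl was also lower in the trunk than in caudal tissue. The WT trunk mean was 0.832 times the WT caudal mean (log2 -0.25 ± 0.06, limma adjusted p = 0.012), although 2 of 16 cross pairs had the trunk library higher. This call was lost when the fit held these 2 groups alone (adjusted p = 0.060) and without the 3 libraries that held both Xist and Ddx3y (-0.24, adjusted p = 0.059). In Ednrb-/- embryos the trunk mean was 0.910 times the caudal mean (-0.13 ± 0.06, adjusted p = 0.12). There the libraries did not overlap, at 8.558 to 9.371 FPKM in the trunk and 9.571 to 9.958 in caudal tissue, yet the difference did not pass with the spread shared over all groups, and it did when the fit held these 2 groups alone (adjusted p = 0.043). From lowest to highest the Kitl means ran WT trunk, WT caudal, Ednrb-/- trunk and Ednrb-/- caudal. The middle neighbours overlapped, with WT caudal the higher in 6 of 16 pairs.

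**Figure D2:**
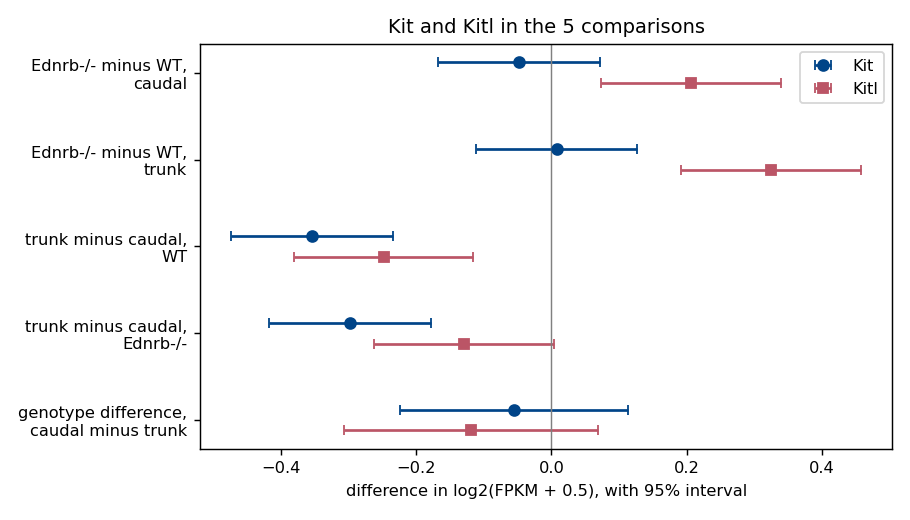
Differences in log2(FPKM + 0.5) for Kit (circles) and Kitl (squares) in the 5 comparisons, with 95% intervals from the limma fit on the horizontal axis. The Kit interval leaves 0 in the trunk minus caudal comparisons alone, and the Kitl interval leaves 0 in both genotype comparisons and in the WT region comparison.

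Because FPKM is per length, ligand and receptor can be set side by side in 1 library, and their ratio does not depend on how libraries were scaled. Kitl exceeded Kit in all 16 libraries. The Kitl to Kit ratio of FPKM was 1.91 ± 0.194 in WT trunk (SD, n = 4; 1.64 to 2.08) and 2.41 ± 0.184 in Ednrb-/- trunk (2.23 to 2.63). In caudal tissue it was 1.74 ± 0.117 in WT (1.64 to 1.91) and 2.10 ± 0.061 in Ednrb-/- embryos (2.03 to 2.18). In each region the lowest Ednrb-/- library had a higher ratio than the highest WT library.

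The log2 ratio, with 0.5 added to each value, rose by 0.32 in the trunk and by 0.25 in caudal tissue. Both had p = 0.0286, the lowest value possible for 4 against 4 libraries in a two-sided exact permutation test ( adjusted p = 0.0381 over 4 comparisons). Between the regions the ratio was higher in the trunk by 0.17 in Ednrb-/- embryos (exact permutation p = 0.0286, adjusted p = 0.0381). In WT it was higher by 0.11, which did not pass (exact permutation p = 0.314, adjusted p = 0.314). Leaving out 1 Ednrb-/- caudal library raised the adjusted p of each of these 3 calls to 0.0762, and without the 3 libraries with both Xist and Ddx3y it was 0.114 for the trunk comparison (4 against 3 libraries) and 0.133 for the other two (3 against 3 libraries).

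**Figure D3:**
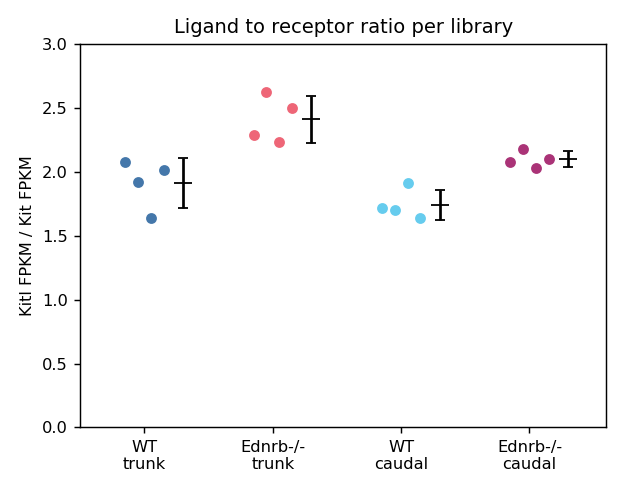
Kitl FPKM divided by Kit FPKM in each library, by group; points are libraries in replicate order and the bar is the group mean with its SD (n = 4). The ratio runs from 1.64 to 2.08 in WT and from 2.03 to 2.63 in Ednrb-/- libraries, without overlap of the genotypes inside a region.

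Melanoblasts are the Kit-bearing cells the study is about, and their markers fell in both regions while Kit did not pass the test. The 12 melanoblast markers summed to 7.68 to 8.58 FPKM in WT caudal and 1.34 to 2.22 FPKM in Ednrb-/- caudal libraries. In the trunk the sum was 1.85 to 2.98 FPKM in WT and 0.904 to 1.15 FPKM in Ednrb-/- libraries. All 4 markers that passed the low-value filter were called lower in both regions, the trunk calls of Dct and Gpnmb being lost in part of the alternatives. The 4 were Pmel, Dct and Gpnmb, genes of the melanosome and of melanin synthesis, and Mitf, the master factor of the lineage. Of all genes 19.9% were lower in caudal tissue and 13% in the trunk. The filter asked for 0.5 FPKM in 4 libraries, which a marker high only in WT caudal tissue can meet. The 4 markers were thus in part selected for being high there, and their count cannot be weighed against these shares. Tyrp1, an enzyme of melanin synthesis, had at most 2 reads in a WT caudal library and 0 in all libraries of the other groups. Pmel fell by 1.93 ± 0.13 on the log2 scale in caudal tissue (limma adjusted p = 3.7e-07), where the value of Kit was -0.05. Fewer melanoblasts and less RNA per melanoblast cannot be told apart in bulk tissue.

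Between regions, melanoblast markers and Kit were both higher in caudal tissue within each genotype, in Ednrb-/- embryos at a marker sum of 1.34 to 2.22 FPKM against 0.904 to 1.15 in the trunk. Ednrb-/- caudal libraries, with a marker sum of at most 2.22 FPKM, had 4.548 to 4.811 FPKM of Kit. WT trunk libraries had a marker sum of 1.85 to 2.98 FPKM, overlapping that range, and a Kit level of 3.439 to 3.874 FPKM. Markers of other cell types that can carry Kit were measured beside it. The 14 haematopoietic progenitor markers summed to 24 to 26.9 FPKM in WT trunk, 26.2 to 26.8 in Ednrb-/- trunk, 25.7 to 28 in WT caudal and 28.7 to 30.9 in Ednrb-/- caudal tissue. The 14 primordial germ cell markers summed to 17.6 to 22.4 FPKM over all groups. Of these 14, 2 averaged under 0.1 FPKM in WT trunk, 2 in Ednrb-/- trunk, 6 in WT caudal and 5 in Ednrb-/- caudal tissue. Between WT regions 1 of 9 tested haematopoietic markers was called as lower in the trunk and 0 as higher, and of 8 tested germ cell markers 2 were lower and 1 was higher, against 8.35% of all genes lower and 9.69% higher. Between genotypes the haematopoietic markers moved both ways in caudal tissue, where 2 of 9 rose and 1 fell, or 33.3% against 41.6% of all genes. In the trunk 0 of 9 were called, against 25.1% of all genes. The part of melanoblasts and of these other cells in the Kit region difference was not tested.

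**Figure D4:**
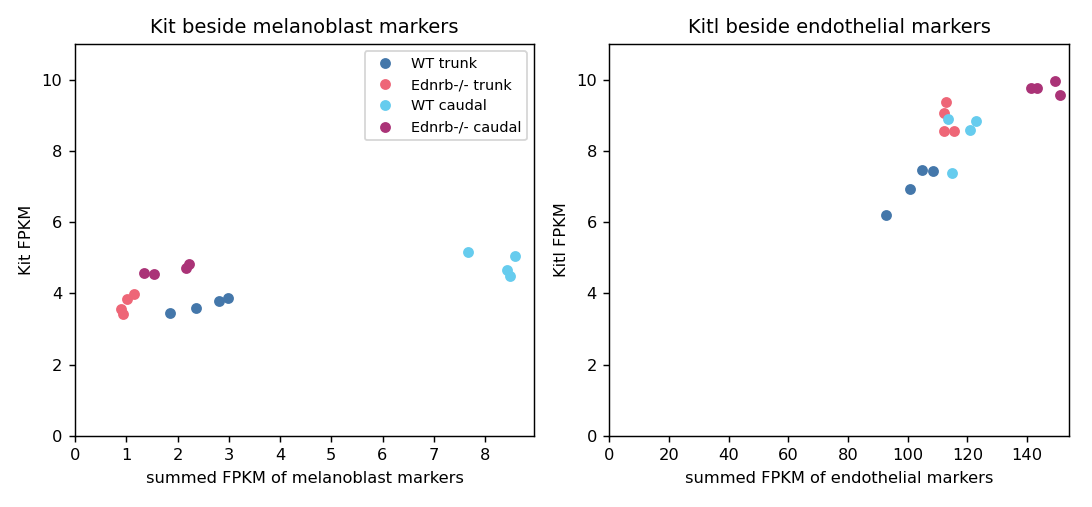
Left, Kit FPKM against the summed FPKM of 12 melanoblast markers; right, Kitl FPKM against the summed FPKM of 13 endothelial markers; points are the 16 libraries, coloured by group. Ednrb-/- caudal libraries have Kit at 4.548 to 4.811 FPKM with a melanoblast sum of 1.34 to 2.22, and they hold both the highest Kitl and the highest endothelial sums (141 to 151).

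Kitl is made by several supporting tissues, among them endothelium, dermal mesenchyme and epithelia. Endothelial markers were lowest in WT trunk and highest in Ednrb-/- caudal tissue, as Kitl was. Their sum was 92.6 to 108 FPKM in WT trunk, 112 to 115 in Ednrb-/- trunk, 113 to 123 in WT caudal and 141 to 151 in Ednrb-/- caudal tissue. The median sum was lower in Ednrb-/- trunk (113) than in WT caudal tissue (118), whereas the Kitl means of these groups ran the other way. Of 13 endothelial markers tested 9 rose and 0 fell in caudal tissue, and 5 rose and 0 fell in the trunk, or 69.2% and 38.5%, where 21.7% and 12.2% of all genes rose. The 11 dermomyotome and dermis markers summed to 147 to 153 FPKM in WT trunk, 171 to 183 in Ednrb-/- trunk and 198 to 233 in Ednrb-/- caudal tissue. In WT caudal tissue this sum had a median of 192, its lowest library (179) was below the highest of Ednrb-/- trunk, and its highest was above the lowest of Ednrb-/- caudal tissue. Of the 10 tested, 3 rose and 1 fell in caudal tissue, and 2 rose and 1 fell in the trunk. These were 40% and 30%, against 41.6% and 25.1% of all genes. The sum of surface ectoderm markers went the other way from Kitl in the trunk, at 48 to 60 FPKM in WT and 39.2 to 43.4 FPKM in Ednrb-/- libraries. In caudal tissue their sum was 55.1 to 69.6 FPKM in WT and 65.8 to 79.3 in Ednrb-/- libraries. By median the sum was highest in Ednrb-/- caudal tissue, the group where Kitl was highest. The surface ectoderm markers did not move together. Of the 11 tested, 5 rose and 4 fell in caudal tissue, and 2 rose and 4 fell in the trunk. These were 81.8% and 54.5%, against 41.6% and 25.1% of all genes. In caudal tissue Krt18 rose by 1.30 and Krt15 fell by 1.40 (log2). No marker of these 3 lists averaged under 0.1 FPKM in any group, and their part in the Kitl rise was not tested.

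Kitl was the only tested member of the class III receptor and ligand family that rose in the genotype comparisons. Of the 13 genes of this family, Kit and Kitl included, 10 passed the filter. In caudal tissue 1 rose (Kitl) and 1 fell, and in the trunk 1 rose (Kitl) and 2 fell, or 20% and 30%, against 41.6% and 25.1% of all genes. Csf1r, the receptor of macrophages, fell by 0.66 ± 0.10 in caudal tissue (log2; limma adjusted p = 9.5e-05) and by 0.35 ± 0.10 in the trunk (adjusted p = 0.016). Its ligand Csf1 fell by 0.29 ± 0.09 in the trunk (adjusted p = 0.027) and stood at -0.14 in caudal tissue (adjusted p = 0.22). The trunk call of Csf1r was lost without WT trunk replicate 2 (adjusted p = 0.055), and that of Csf1 without any of WT trunk 2, 3 and 4 and Ednrb-/- trunk 1, 2 and 4. The call of Csf1r was also lost without the 3 libraries with both Xist and Ddx3y, and that of Csf1 with no filter and after quantile normalization.

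Pdgfra, a receptor of mesenchyme and the neighbour of Kit on chromosome 5, did not share its pattern. It averaged 32.0 FPKM in WT trunk, 27.8 in Ednrb-/- trunk, 28.3 in WT caudal and 29.3 in Ednrb-/- caudal tissue, with no call in any of the 5 comparisons. Kdr, the endothelial receptor on its other side, averaged 10.3, 11.2, 11.7 and 13.9 FPKM in the same order. Pdgfc, a ligand of Pdgfra, had the region difference seen for Kit: it was lower in the trunk by 0.27 ± 0.06 in WT (limma adjusted p = 0.0079) and by 0.24 ± 0.06 in Ednrb-/- embryos (adjusted p = 0.0076). The WT call was lost when the fit held the 2 WT groups alone (adjusted p = 0.05), and the Ednrb-/- call under TPM (adjusted p = 0.057). Pdgfrb, Pdgfa, Pdgfb and Pdgfd passed in none of the comparisons, and Flt3, Flt3l and Il34 were below the filter.

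The genes that carry the Kit signal inside the cell were called at a share near that of all genes. Of 42 relay genes (adaptors, PI3 kinase, Src family, Ras, MAP kinase and STAT genes) 41 were tested. In caudal tissue 8 rose and 12 fell, or 48.8%, against 41.6% of all genes, and their median was 0.02 against 0.01 over all genes (log2). In the trunk 4 rose and 5 fell, or 22%, against 25.1%. Over the same caudal comparison 13 of 14 neuron markers fell, against 19.9% of all genes, their sum going from 433 to 579 FPKM in WT to 185 to 330 in Ednrb-/- libraries, and the part of cell makeup in the relay changes was not tested. Pik3cd, a catalytic subunit of PI3 kinase of blood cells, fell by 0.77 in caudal tissue (limma adjusted p = 9e-06), from 3.36 ± 0.383 to 1.76 ± 0.198 FPKM (SD, n = 4). Pik3r1, the regulatory subunit, fell by 0.29 in caudal tissue (adjusted p = 0.00027) and by 0.19 in the trunk (adjusted p = 0.012).

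Stat3, a transcription factor activated by many receptors, fell in both regions. Its log2 difference was -0.43 in caudal tissue (limma adjusted p = 0.00032) and -0.35 in the trunk (adjusted p = 0.0037). Gab2, an adaptor of the Kit complex, fell by 0.34 in caudal tissue (adjusted p = 0.00025). In the trunk Rps6ka3, a kinase downstream of MAP kinase, rose by 0.32 (adjusted p = 0.00063) and Sos1, which loads Ras with GTP, by 0.25 (adjusted p = 0.00084). For the interaction 0 of the 41 were called with a positive and 4 with a negative value.

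Of the genes that dampen the signal, a larger number rose than fell in the trunk. Of 24 such brakes 23 were tested, of which 6 rose and 2 fell in the trunk and 3 rose and 2 fell in caudal tissue, or 34.8% and 21.7% of the list, against 25.1% and 41.6% of all genes. Cbl, the ubiquitin ligase that sends active Kit for breakdown, rose by 0.31 in the trunk (limma adjusted p = 2e-04), from 11.48 ± 0.640 to 14.3 ± 0.230 FPKM (SD, n = 4). In caudal tissue Cbl rose by 0.20 (adjusted p = 0.0016), a call lost under TPM (0.10, adjusted p = 0.073). Dusp6, a phosphatase of MAP kinase and a readout of its activity, rose by 0.44 in the trunk (adjusted p = 0.00039) and by 0.28 in caudal tissue (adjusted p = 0.0037). Ptpru, a receptor phosphatase reported to bind Kit, rose by 0.35 in the trunk (adjusted p = 0.0013). Socs2, a feedback inhibitor of JAK and STAT signals, went the other way, by -0.46 in the trunk and -0.39 in caudal tissue (adjusted p = 0.0013 and 0.0017). With scaling to TPM or voom the caudal count of called brakes was 8 in place of 5.

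**Figure D5:**
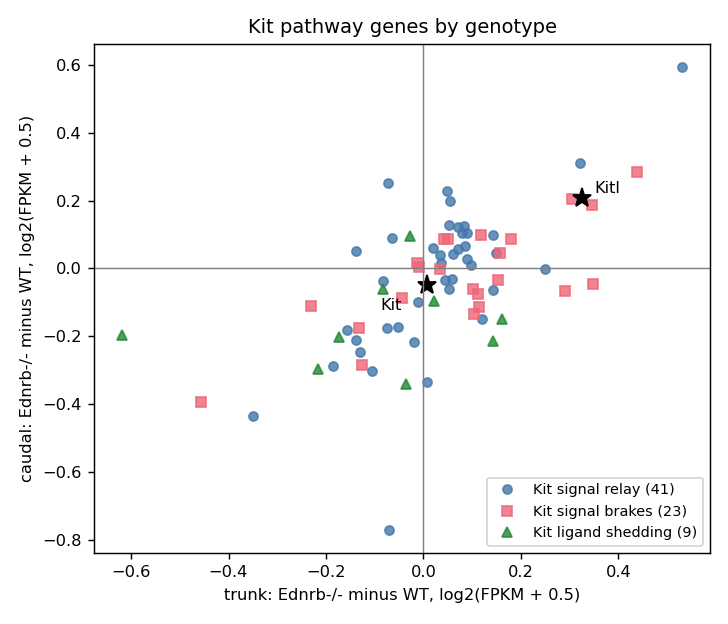
Log2 differences, Ednrb-/- minus WT on the log2(FPKM + 0.5) scale, in the trunk (horizontal) and caudal region (vertical) for the tested genes of the relay, brake and ligand-shedding lists, with Kit and Kitl as stars. Kitl lies at 0.33 and 0.21 near Cbl, Kit lies near the origin, and 27 of the 41 relay genes lie within 0.2 of the origin on both axes.

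No enzyme or inhibitor listed for shedding of the ligand was called as higher in Ednrb-/- than in WT libraries of either region. Of 11 genes 9 were tested. In caudal tissue 0 rose and 3 fell, or 33.3% against 41.6% of all genes, and in the trunk 0 rose and 2 fell, or 22.2% against 25.1%. Timp3, an inhibitor of metalloproteinases, fell by 0.34 in caudal tissue (limma adjusted p = 0.00042). Adam10, a sheddase, fell by 0.10 there (adjusted p = 0.015), from 46.3 ± 0.383 to 43.3 ± 1.07 FPKM (SD, n = 4), a call lost without the 3 libraries with both Xist and Ddx3y (adjusted p = 0.055). Mmp9, a protease known to release Kit ligand in bone marrow, fell by 0.62 in the trunk (adjusted p = 4e-04), from 0.676 ± 0.0528 to 0.267 ± 0.0584 FPKM. In all libraries outside WT trunk Mmp9 was at 0.340 FPKM or less, so it passed the 0.5 FPKM filter through WT trunk alone. A fall in the trunk was thus built into its being tested, and it is 1 of the 2 falls counted there. Caudal calls in this list numbered 7 with scaling to TPM and 8 with voom, and 5 with a replicate block or a sex term.

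Of 15 transcription factors known to act at the Kit gene in 1 cell type or another, all passed the filter, and 3 rose and 5 fell in caudal tissue while 1 rose and 3 fell in the trunk. These were 53.3% and 26.7% of the list, against 41.6% and 25.1% of all genes. Caudal values of the list ran from -0.63 to 0.89 (log2). Runx1, a factor of blood formation, had the lowest caudal value, at -0.63 (limma adjusted p = 0.00072), and stood at -0.32 in the trunk (adjusted p = 0.065). Runx1 was a low gene that did not pass the filter at 1 FPKM. It may have passed the 0.5 FPKM filter through WT libraries, which would build in a fall. It is 1 of the 5 caudal falls counted. Sox10, Mitf and Tfap2a, factors of the neural crest, fell in both regions, and Tfap2a was also among the surface ectoderm markers used here. Sox10 fell by 0.53 in caudal tissue (limma adjusted p = 0.00014) and by 0.33 in the trunk (adjusted p = 0.0092). Mitf fell by 0.51 and 0.34 (adjusted p = 0.00042 and 0.012), and Tfap2a by 0.56 and 0.35 (adjusted p = 0.001 and 0.032), the trunk call of Tfap2a being lost without any of 6 single trunk libraries (WT 2, 3 and 4 and Ednrb-/- 2, 3 and 4). Kit passed the test in neither region.

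Other growth signals of melanoblasts went in both directions. Of 12 genes, Ednrb included, 4 rose and 5 fell in caudal tissue and 3 rose and 4 fell in the trunk, or 75% and 58.3%, against 41.6% and 25.1% of all genes. The falls in both regions include that of Ednrb, which was set by the genotype and raises both shares. Their excess over all genes is thus in part built in. Cxcl12, a chemokine ligand, rose by 0.41 in the trunk (limma adjusted p = 0.00031). Fgf7, a growth factor of mesenchyme, fell by 0.67 in caudal tissue (adjusted p = 0.00059) and by 0.83 in the trunk (adjusted p = 0.00029). The size of these falls depended on the setting. Left-out libraries aside, the value ran from -1.97 to -0.41 in caudal tissue and from -1.39 to -0.60 in the trunk. Fgf7 may have passed the filter through WT libraries, which would build in a fall. Nrg1, the neuregulin ligand, fell by 0.44 in caudal tissue (adjusted p = 0.0012) and stood at 0.23 in the trunk (adjusted p = 0.078). Its receptor Erbb3 fell by 0.70 in caudal tissue (adjusted p = 1.6e-06) and by 0.40 in the trunk (adjusted p = 0.00017).

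Across the 16 libraries the protein-coding genes with a pattern most like Kit, by Pearson correlation of log2(FPKM + 0.5) and among 11828 genes with a mean of at least 1 FPKM, were Sgk3 (0.95), Hoxb13 (0.94), Hoxc12 (0.94), Hoxc13 (0.93) and Tmem30b (0.93). Sgk3 averaged 0.914, 0.900, 1.246 and 1.22 FPKM in WT trunk, Ednrb-/- trunk, WT caudal and Ednrb-/- caudal tissue. The Hox genes on this list are posterior genes with far larger region differences than Kit. The genes most like Kitl were Vps54 (0.97), Sost (0.95), Haus3 (0.94), Ppia (0.93) and Hapln1 (0.93). Vps54 averaged 11.1, 12.6, 12.3 and 13.3 FPKM in the same order of groups. With group means removed its correlation with Kitl was 0.81, and that of Sgk3 with Kit 0.62. Kit and Kitl had a correlation of 0.49 with each other, and 1473 genes were closer to Kit than Kitl was. These correlations describe 16 libraries in 4 groups that share region and genotype differences, and carry no test.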

How the data were processed

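RNA was extracted with TRIzol and sequenced after standard Illumina library preparation, per the labels' protocols. The submitters' processing notes name fastp, HISAT2 2.0.5, featureCounts 1.5.0-p3 and build mm39. Neither these notes nor the files name the annotation release or strand setting. The authors deposited FPKM per gene and library. FPKM times gene length divided by 1 step per library gave whole reads for 100% of values (within 0.01), which gave the depth. Kit had 1114 to 1694 reads per library and Kitl 1385 to 2260, a counting error of 2.19% to 2.78%, against a spread within groups of 1.62% to 8.47%. No pair of replicates agreed within sampling noise (chi-square per degree of freedom 6.292 to 20.75).

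Libraries were grouped by title. Limma 3.58.1 (R 4.3.3) was fitted to log2(FPKM + 0.5) of all 16 libraries with 4 group means and a trended prior, on the 17205 genes that reached 0.5 FPKM in 4 or more libraries, and called at a Benjamini-Hochberg adjusted p under 0.05. Fold changes are on that scale and understate changes of low genes. The procedure was tested on simulated data. The ligand to receptor ratio was tested by exact permutation. The members and the 18 gene lists were chosen with earlier results of these data known. Named genes were Kit, Kitl and Ednrb, the class III family and up to 4 members per list by adjusted p in the genotype comparisons. The 5 genes most correlated with Kit and with Kitl were also named. The text gives part of these, and Kdr, Tyrp1 and Mcpt4 were picked after their values were seen. Lists are described by counts and medians without a test. Alternatives were other pseudocounts, filters and scalings, array weights, voom, a replicate block, a sex term, fits of only the compared groups and left-out libraries. The alternative coding stretches were read from GENCODE M21 transcripts. Figures were drawn with matplotlib 3.10.9.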

Additional observations from a re-analysis of the deposited data

How the results depend on the processing

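Kit kept its region calls under every alternative listed in the methods and with any 1 library left out (-0.39 to -0.32 in WT and -0.33 to -0.23 in Ednrb-/- embryos over the settings, log2), and Kitl kept its trunk rise (0.27 to 0.36). Near-zero Kit differences changed sign: in the trunk to -0.0146 with TPM, -0.024 with voom, -0.0093 with a sex term and -0.0083 without the 3 libraries with both Xist and Ddx3y (-0.0228 to 0.0396 with a library left out, below 0 without WT trunk 1 or 4 or Ednrb-/- trunk 1 or 3), and in caudal tissue to 0.0056 after quantile normalization. The caudal genotype difference of Kit went to -0.14 with TPM and -0.12 with voom, neither past the threshold. Kitl in caudal tissue fell to 0.11 with TPM and 0.15 with voom, neither past the threshold, and ran from 0.15 to 0.23 with a library left out. Kitl between WT regions was lost at -0.25 with only the compared groups and -0.24 without the 3 libraries, and between Ednrb-/- regions it passed at -0.13 with only the compared groups. Without the 3 libraries the log2 ratio was 0.26 in caudal tissue, 0.35 in the trunk and 0.19 between Ednrb-/- regions, with adjusted p = 0.133, 0.114 and 0.133 (exact permutation tests of 3 against 3 libraries, or 4 against 3 in the trunk); with 1 library left out it ran from 0.2268 to 0.296, 0.2509 to 0.3563 and 0.1299 to 0.2012. Called genes between WT regions numbered 1912 without the 3 libraries against 3103, and for the interaction 571 with no filter against 1163 (585 to 1488 with a library left out, lowest without WT trunk 1, Ednrb-/- trunk 1 or 3, WT caudal 1, or Ednrb-/- caudal 2 or 4). Relay genes called in the trunk numbered 5 without the 3 libraries against 9 (5 to 10 with a library left out, 5 without WT trunk 2). Caudal brakes numbered 3 with no filter and 8 with TPM or voom against 5 (3 to 6, with 3 without WT caudal 4 or Ednrb-/- caudal 4). Caudal shedding genes numbered 7 with TPM, 8 with voom, and 5 with the replicate block or sex term against 3. Trunk shedding genes numbered 1 with a filter at 1 FPKM, quantile normalization, only the compared groups or without the 3 libraries, against 2 (1 to 3, with 1 without WT trunk 1, 2 or 3 or Ednrb-/- trunk 1 or 3). The cause of these changes was not tested. The library size implied by FPKM was above the reads in listed genes in every WT library. It was below them in every Ednrb-/- caudal library and in Ednrb-/- trunk 4, so this offset differed between genotypes in caudal tissue. Its part in the caudal values of Kit and Kitl was not tested. With voom on whole reads the median caudal difference of all genes was -0.06. Rescaling to TPM moved this median to -0.08 from 0.01. Of the called genes it left 30.7% as higher in caudal tissue, 66.9% in the trunk of Ednrb-/- embryos against their caudal tissue and 20.9% for the interaction, and voom left 37.3% in caudal tissue, 37.1% in the trunk and 27.4% for the interaction.

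Same-numbered libraries of compared groups had correlations of -0.084 to 0.109 between their deviations from group means, so no pairing by number was clear. For WT trunk 2 and 3 the same-numbered caudal library was still the best match, at 0.031 and 0.109. That was also so for replicate 2 between genotypes in caudal tissue, at 0.082. Low correlations cannot exclude that some libraries shared an embryo. With the replicate block no call of Kit or Kitl changed (Kitl 0.21 in caudal tissue and 0.33 in the trunk).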

Other observations

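Mast cells depend on Kit, and 2 of the 3 mast cell markers that passed the filter, of 11 listed, fell in both regions, where 19.9% of all genes fell in caudal tissue and 13% in the trunk. The summed level of the 11 overlapped between genotypes, at 3.46 to 4.87 FPKM in WT trunk, 3.29 to 3.99 in Ednrb-/- trunk, 2.5 to 4.57 in WT caudal and 3.28 to 4.28 in Ednrb-/- caudal tissue. Gata2, a factor of mast cells and other blood and neural cells, was the third tested, at 0.49 in caudal tissue (log2; limma adjusted p = 0.056) and 0.34 in the trunk (adjusted p = 0.23). Cpa3, a granule protease of mast cells and their progenitors, had 28 to 61 reads per library in WT trunk (0.671 ± 0.182 FPKM, SD, n = 4) and was at 0 in all 4 Ednrb-/- trunk libraries (limma adjusted p = 5.4e-05). In caudal tissue it had 16 to 37 reads in WT and 0 to 6 reads in Ednrb-/- libraries (adjusted p = 0.00033). Cpa3 thus passed the 0.5 FPKM filter through WT libraries alone, so a fall was built into its being tested. The count of 2 of 3 markers cannot be weighed against the shares of all genes. Hpgds, a prostaglandin synthase of mast cells and macrophages, went from 1.29 ± 0.0468 to 0.757 ± 0.0602 FPKM in the trunk (adjusted p = 0.00095) and from 1.13 ± 0.0991 to 0.643 ± 0.145 FPKM in caudal tissue (adjusted p = 0.00035). Mcpt4, a protease of mature mast cells, was at 0 in every library.

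Other lists gave these counts between genotypes, where 41.6% of all genes were called in caudal tissue and 25.1% in the trunk. Of 9 neural crest markers 8 fell in caudal tissue and 6 in the trunk (88.9% and 66.7% called), and none rose. Of 11 erythroid markers 2 rose and 4 fell in each region (54.5%). Of 11 genital ridge and mesonephros markers 2 rose and 4 fell in caudal tissue (54.5%) and 1 rose and 2 fell in the trunk (27.3%). Of 8 tested floor plate and notochord markers 4 rose and 3 fell in caudal tissue (87.5%) and 1 rose and 2 fell in the trunk (37.5%).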
